A study of Homo sapiens with 6 samples.

Results

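DNA replication and S-phase genes were followed as a set of 44 genes chosen by name, and all 44 were found once each among the 58735 rows of the deposited count and FPKM tables. The set holds the genes of the replication fork and further transcripts that peak as cells copy their DNA. It was compared between sorted fractions of the human line MDA-MB-231, derived from triple-negative breast cancer and labelled WT in genotype, with no other agent named in the labels. Cells had been stained with PKH26, a fluorescent membrane dye that is shared out between daughter cells at each division, and then grown for 12 days. Slow-cycling cells (SCC) were the brightest 1%, labelled PKH26hi, and rapid-cycling cells (RCC) came from the same kind of stained culture. The treatment text calls the RCC fraction moderate in dye, whereas its sample label is PKH26lo. Each group had 3 libraries, which the study's design text calls biological replicates. It does not say whether they came from separate cultures, so p-values measure the spread between these samples. The fractions are defined by dye content in 1 cell line, and no label reports the cell cycle state of either.

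Replication is prepared in G1, when ORC, CDC6 and CDT1 load the ring of MCM2 to MCM7 onto origins. This step is called licensing, and geminin (GMNN) blocks it once S phase has started. CDC45 and the GINS proteins then turn the loaded ring into the active CMG helicase, and MCM10 helps the fork to start. Behind the helicase, polymerase alpha with primase lays primers, the PCNA clamp is loaded by RFC, and FEN1 trims Okazaki fragments. Ribonucleotide reductase and thymidylate synthase supply deoxynucleotides. Many of these genes are transcribed by E2F factors as cells pass from G1 into S phase, and their transcripts are widely used to mark cycling cells.

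Summed counts were 17655855 to 27831824 per library. The 44 genes took 0.563% to 0.593% of them in the SCC libraries and 0.602% to 0.621% in the RCC libraries, and the groups did not overlap. These are shares of raw counts, without the scaling of library totals used for CPM and the fits below. Shares of other gene sets were not examined. In bulk RNA, fewer cells in S phase and less of these transcripts per cell cannot be told apart. SCC replicate 1 stood apart by GC content, the share of G and C in a gene's exons. Tested genes were put in 10 bins of GC content. In the lowest bin (median 37.3%), values in SCC replicate 1 lay at a median log2 deviation of -0.23 from the 6-library mean, and in the highest bin (63.5%) at 0.41. In the other 5 libraries these medians lay between -0.021 and 0.096 for the lowest bin and between -0.16 and 0.027 for the highest. The source of the trend was not tested. The 44 genes had a median GC content of 44.2%, from 36.7% in RAD51AP1 to 64.9% in CDT1, and the median of all tested genes was 48.0%. Results are also given with an offset for GC content and, where leaving it out changed a call, without that library. The shares of summed counts above carry no such offset. The line's markers were present in every library: VIM was at 145 to 161 FPKM and CD44 at 33.3 to 36.6. Of the 3 receptors whose lack names triple-negative cancer, ESR1 and PGR stayed below 0.5 FPKM, and ERBB2 was at 6.88 to 10.2. All 7 leukocyte markers were below 0.5 FPKM, with a summed level of 0.444 to 0.942 in SCC and 0.412 to 0.524 in RCC, and so were all 5 fibroblast and endothelial markers.

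Most replication genes had slightly lower values in SCC than in RCC, and 1 of the 44 passed the test. CDCA7 was called lower, meaning an adjusted p under 0.05 (edgeR quasi-likelihood F test, Benjamini-Hochberg over all genes), where 0.378% of the 15881 tested genes were called lower, and 0 of the 44 were called higher, against 1.69% of all genes. All 44 passed the filter on low counts. Their log2 fold changes (SCC over RCC) ran from -0.41 in CDCA7 to 0.26 in CDT1, with a median of -0.082, and that of all tested genes was 0.0029. The value was below 0 for 35 of the 44 (79.5%), and for 49.5% of all tested genes. At an unadjusted p under 0.05, 11 of 44 (25%) were lower and 0 were higher by edgeR, against 8.27% and 11.4% of all tested genes. DESeq2 called CDCA7 alone lower and 0 of the 44 higher, against 1.07% and 3.02% of all genes. With the GC offset the median was -0.044, and 34 of 44 (77.3%) were below 0, against 50.7% of all tested genes. CDCA7 and GINS2 were then called lower, as were 1.47% of all tested genes, and 0 members higher, against 3.19%. In that fit 10 members were lower and 1 higher by unadjusted p under 0.05, against 9.48% and 10.8%. Without SCC replicate 1 the median was -0.062; CDCA7 and GINS2 were called lower and PCNA higher, where 2.1% and 3.93% of the genes tested in that fit were called lower and higher. With both steps CDCA7, GINS2 and UHRF1 were called lower and PCNA higher, where the shares were 2.47% and 3.99%.

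Counted by library, CPM (counts scaled by TMM-adjusted library totals) of 17 of the 44 genes (38.6%) were lower in every SCC than in every RCC library, against 13.4% of all tested genes. For 0 of the 44 were all SCC libraries higher, against 14.4%. After each library's GC curve was subtracted, the counts were 15 lower and 1 higher, against 12.5% and 13.1% of all tested genes. MCM6, DSCC1, DTL, UNG and NASP then overlapped, CDC45, BLM and UHRF1 no longer did, and USP1 was the higher one. SCC replicate 1 was the lowest of the 6 libraries for 29 genes and the highest for 5. Set against the mean of the RCC libraries, 36, 33 and 29 of the 44 genes were lower in SCC replicates 1, 2 and 3, with medians of -0.14, -0.077 and -0.041 on the log2 scale. CDCA7 was the lowest gene in each of these libraries. The map of all genes by library shows this as a blue left edge that is darkest in SCC replicate 1, broken by the GC-rich genes CDT1, MCM2, MCM5 and MCM7.

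**Figure D1:**
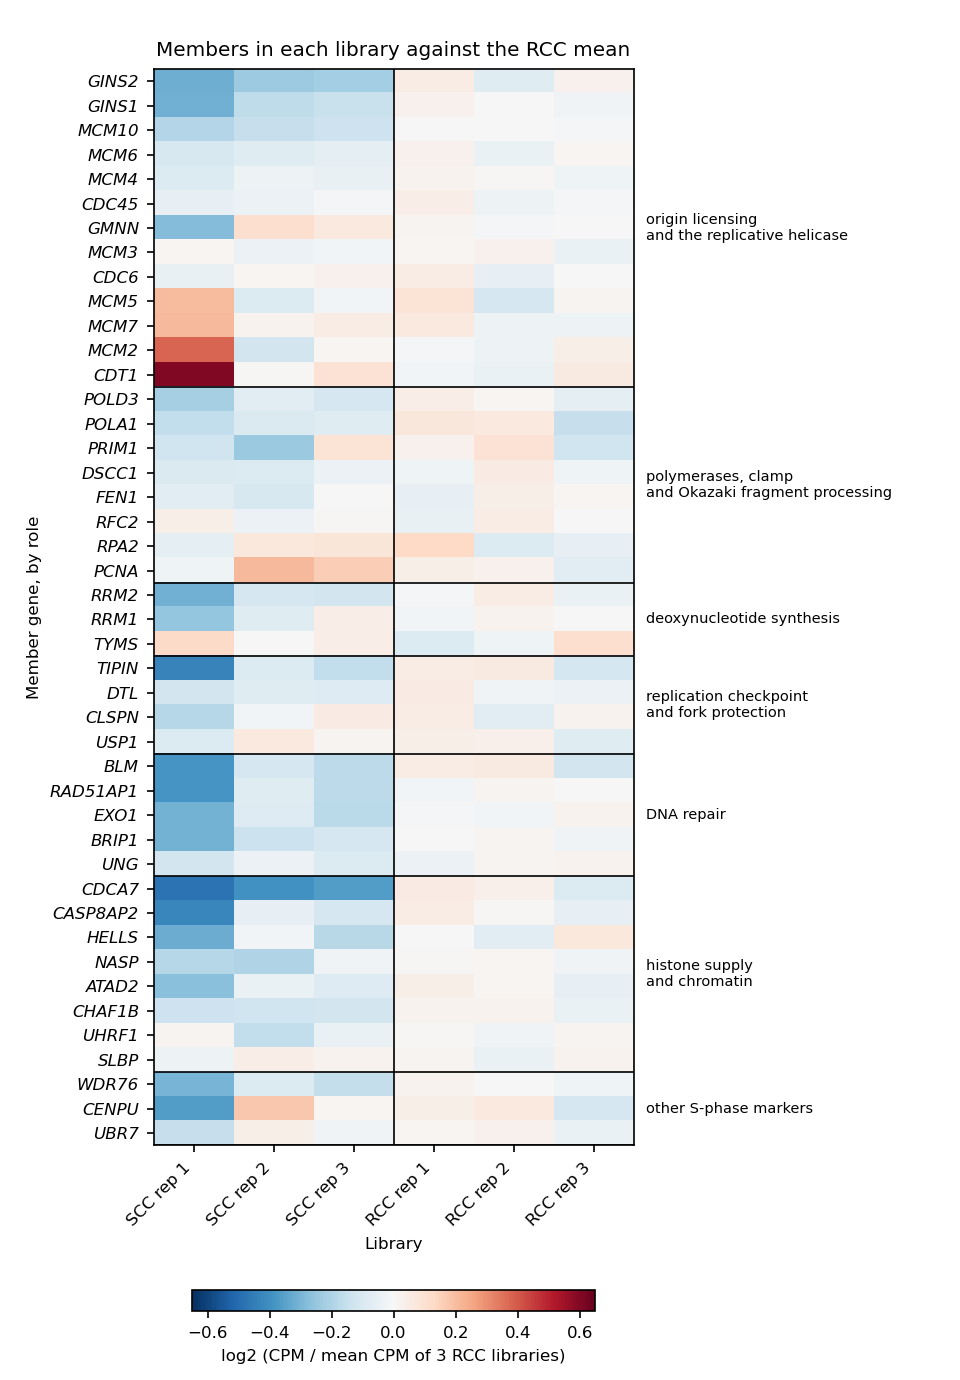
Each row is a member gene, grouped by role, and each column a library. Colour is log2 of its CPM over the mean CPM of the 3 RCC libraries; CDT1 reaches 0.60 in SCC replicate 1, while CDCA7 is blue in all 3 SCC libraries (-0.48, -0.39 and -0.36).

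A promoter feature that the choice of genes did not use was examined in RefSeq windows on GRCh38.p14, from 250 bases before to 50 after each annotated start. E2F sites were searched as TTTCCCGC, TTTCGCGC, TTTGCCGC or TTTGGCGC and the CCAAT box as CCAAT, on both strands. Matches of the 4 E2F spellings on opposite strands can overlap one another, and each was counted. Windows were found for 37 of the 44 genes, and 23 of these (62.2%) held an E2F spelling in at least 1 window. Per window, 24 of 50 (48%) held one, against 3.31% of all 35116 windows in the table and 4.10% of the 22199 windows of protein-coding genes. CCAAT was in 70% of the members' windows and 34.6% of all windows. The windows below are those of the members called in at least 1 fit tried: CDCA7, GINS2 and UHRF1 (called lower) and PCNA (called higher). They were picked by those calls, and UHRF1 and PCNA were called only in fits that left out SCC replicate 1. Whether a spelling goes with the direction of a call was not tested. Capitals mark the E2F spelling and CCAAT, read on either strand, and each sequence runs 5′ to 3′ on the gene's strand.
CDCA7 promoter, chr2:173354622-173354921, plus strand: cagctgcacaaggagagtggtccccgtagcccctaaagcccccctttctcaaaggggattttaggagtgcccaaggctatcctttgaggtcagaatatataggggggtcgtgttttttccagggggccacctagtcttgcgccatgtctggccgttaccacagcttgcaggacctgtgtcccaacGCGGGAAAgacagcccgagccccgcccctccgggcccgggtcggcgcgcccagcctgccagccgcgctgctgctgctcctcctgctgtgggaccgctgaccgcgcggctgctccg
GINS2 promoter, chr16:85688905-85689204, minus strand: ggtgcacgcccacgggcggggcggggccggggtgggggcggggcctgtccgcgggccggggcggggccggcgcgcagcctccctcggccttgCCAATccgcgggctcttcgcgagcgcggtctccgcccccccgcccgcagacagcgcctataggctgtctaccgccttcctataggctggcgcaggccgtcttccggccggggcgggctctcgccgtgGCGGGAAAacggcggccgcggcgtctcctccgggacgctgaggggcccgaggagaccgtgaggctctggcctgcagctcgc
UHRF1 promoter, chr19:4909251-4909550, plus strand: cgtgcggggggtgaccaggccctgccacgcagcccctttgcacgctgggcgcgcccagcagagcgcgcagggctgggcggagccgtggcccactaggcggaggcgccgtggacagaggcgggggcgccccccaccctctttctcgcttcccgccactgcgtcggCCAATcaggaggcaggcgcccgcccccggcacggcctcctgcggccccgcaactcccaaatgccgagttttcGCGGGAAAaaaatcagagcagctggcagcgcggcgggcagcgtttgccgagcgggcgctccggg
PCNA promoter, chr20:5126573-5126872, minus strand: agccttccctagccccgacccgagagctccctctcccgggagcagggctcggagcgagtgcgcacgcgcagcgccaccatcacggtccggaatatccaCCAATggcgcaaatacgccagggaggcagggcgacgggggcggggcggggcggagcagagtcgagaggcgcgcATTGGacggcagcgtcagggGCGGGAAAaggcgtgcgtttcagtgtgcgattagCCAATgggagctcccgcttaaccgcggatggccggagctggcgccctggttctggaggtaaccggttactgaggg

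All 4 windows hold GCGGGAAA, the reverse complement of TTTCCCGC, starting 65 bases before the annotated start in CDCA7, 31 in GINS2, 14 in UHRF1 and 59 in PCNA. CDCA7 has no CCAAT in its window, whereas PCNA has 3. UHRF1 and PCNA have further annotated starts, with 3 and 2 windows in all, and 1 of each is shown. The other PCNA window holds no E2F spelling. Of the other UHRF1 windows, 1 holds a different spelling, TTTCGCGC, and 1 holds none. A match describes letters in the reference and is not evidence of binding in these cells.

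Histone supply and chromatin genes included the called gene. CDCA7 (ENSG00000144354, chromosome 2, 173354820 to 173368997, plus strand on GRCh38) encodes a nuclear protein that activates the chromatin remodeller HELLS and is needed for normal DNA methylation. It was at 51.0, 54.3 and 55.3 CPM in SCC replicates 1 to 3 and 73.9, 73.0 and 66.9 CPM in RCC replicates 1 to 3. The highest SCC library was below the lowest RCC library. Means were 53.5 ± 2.27 CPM in SCC against 71.2 ± 3.79 in RCC (SD, n = 3), a log2 fold change of -0.41 (95% interval -0.58 to -0.25; standard error 0.075; edgeR adjusted p 0.0185), or a change of -24.9%. With the GC offset the log2 fold change was -0.32 (adjusted p 0.00422). The call was lost without SCC replicate 3 or any RCC replicate: the adjusted p by edgeR was 0.0561 without SCC replicate 3 and 0.144, 0.126 and 0.0623 without RCC replicates 1, 2 and 3, with log2 fold changes from -0.46 to -0.40. The adjusted p of CDCA7 by edgeR was 2.7e-04 without SCC replicate 1. Calls over all genes also differed between these fits. With all 6 libraries 60 of 15881 were called lower, and 343 of 16324 without SCC replicate 1. Without SCC replicate 3 it was 19 of 16377. Without RCC replicates 1, 2 and 3 it was 8 of 16283, 14 of 16458 and 11 of 16340.

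Its partner HELLS was at 120.0 ± 12.8 CPM in SCC against 135 ± 6.82 in RCC (SD, n = 3) and was not called (log2 fold change -0.17, or -0.033 with the GC offset, edgeR adjusted p 0.294 and 0.796). UHRF1 (ENSG00000276043, chromosome 19, 4903080 to 4962154, plus strand), which brings the maintenance DNA methyltransferase to newly copied DNA, was at 293, 260.0 and 281 CPM in SCC replicates 1 to 3 and 291, 285 and 294 CPM in RCC replicates 1 to 3. Its SCC libraries spread from below to among the RCC values, and after the GC curve all lay below them. The log2 fold change was -0.060 with edgeR (adjusted p 0.627) and -0.17 with the GC offset (0.0571). Only when SCC replicate 1 was left out and the GC offset was used was it called lower, at -0.14 (0.0347). SLBP, the protein that binds the stem-loop of replication-dependent histone mRNAs, was at 94.5, 99.4 and 98.3 CPM in SCC replicates 1 to 3 and 98.02, 93.9 and 98.1 CPM in RCC replicates 1 to 3. The groups overlapped, and its 95% interval was -0.13 to 0.16 around 0.011, or -0.13 to 0.096 around -0.018 with the GC offset. NASP and CHAF1B, which handle new histones, had all SCC libraries below all RCC libraries: 197 ± 13.3 CPM in SCC against 216 ± 2.83 in RCC (SD, n = 3) for NASP, and 48.9 ± 0.283 CPM in SCC against 53.4 ± 1.41 in RCC (SD, n = 3) for CHAF1B. Neither was called (log2 fold changes -0.13 and -0.13, edgeR adjusted p 0.2998 and 0.336). Values were -0.086 and -0.12 with the GC offset, and after the GC curve the groups overlapped in NASP but not in CHAF1B. ATAD2, a bromodomain ATPase, and CASP8AP2, a nuclear protein linked to histone gene expression, had values of -0.13 and -0.19, and -0.030 and -0.068 with the GC offset. In this group 7 of 8 genes were below 0 without that offset and 8 with it, against 49.5% and 50.7% of all tested genes.

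Of the licensing and helicase genes, 0 were called by DESeq2 or by edgeR on group alone. With the GC offset edgeR called 1 lower, GINS2, where 1.47% of all tested genes were. At an unadjusted p under 0.05 edgeR had 3 lower and 0 higher on group alone, against 8.27% and 11.4% of all tested genes. With the offset it had 2 lower and 0 higher, against 9.48% and 10.8%. Among 13 genes, 9 had log2 fold changes below 0, or 11 with the GC offset, against 49.5% and 50.7% of all tested genes. The GINS genes were the lowest. GINS2 (ENSG00000131153, chromosome 16, 85676198 to 85690073, minus strand), a subunit of the GINS complex of the CMG helicase, was at 43.2, 45.7 and 46.1 CPM in SCC replicates 1 to 3 and 55.6, 51.0 and 54.9 CPM in RCC replicates 1 to 3. All SCC libraries lay below all RCC libraries. Its log2 fold change was -0.26 (95% interval -0.43 to -0.092, edgeR adjusted p 0.109), which did not pass. It passed with the GC offset (-0.30, 0.0184) and without SCC replicate 1 (-0.23, 0.0432), and its GC content was 51.4%. GINS1, its partner in the same complex, was at 62.1, 68.7 and 69.7 CPM in SCC replicates 1 to 3 and 78.5, 76.8 and 75.8 CPM in RCC replicates 1 to 3, again without overlap. The log2 fold change was -0.21 (-0.13 with the GC offset), and the edgeR adjusted p was 0.167 and 0.171. MCM10 was at 75.7, 78.0 and 78.6 CPM in SCC replicates 1 to 3 and 86.7, 86.4 and 86.1 CPM in RCC replicates 1 to 3. The RCC libraries differed from one another by under 1 CPM and all exceeded the SCC libraries, but the log2 fold change of -0.16, or -0.10 with the GC offset, was not called (edgeR adjusted p 0.220 and 0.260). CDC45, the third component of the CMG helicase, was at 74.7 ± 0.979 CPM in SCC against 76.5 ± 2.16 in RCC (SD, n = 3), with groups that overlapped before the GC curve was subtracted and not after it, and a log2 fold change of -0.034, or -0.11 with the GC offset (edgeR adjusted p 0.798 and 0.331).

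The 6 genes of the MCM2 to MCM7 ring were not called in any fit tried, with log2 fold changes from -0.083 to 0.11. MCM6 was at 117, 119 and 119.9 CPM in SCC replicates 1 to 3 and 128, 122 and 127 CPM in RCC replicates 1 to 3, and MCM4 at 244, 254 and 252 CPM in SCC replicates 1 to 3 and 264, 261 and 255 CPM in RCC replicates 1 to 3. In both, every SCC library was below every RCC library, by little: the log2 fold changes were -0.083 and -0.055. They were -0.0078 and -0.048 with the GC offset, and after the GC curve the groups overlapped in MCM6 but not in MCM4. MCM3 was at 324, 313 and 318 CPM in SCC replicates 1 to 3 and 325, 328 and 312 CPM in RCC replicates 1 to 3, with the groups intermingled (-0.014, or -0.038 with the GC offset). MCM2 was at 185, 131 and 144 CPM in SCC replicates 1 to 3 and 142, 139 and 146 CPM in RCC replicates 1 to 3. MCM5 was at 256, 208 and 218 CPM in SCC replicates 1 to 3 and 235, 205 and 224 CPM in RCC replicates 1 to 3. MCM7 was at 856, 753 and 767 CPM in SCC replicates 1 to 3 and 773, 724 and 725 CPM in RCC replicates 1 to 3. In these 3 genes SCC replicate 1 was the highest of all libraries and the other SCC libraries lay among or near the RCC values. Their GC contents were 56.6%, 55.2% and 57.3%. Log2 fold changes of 0.11, 0.039 and 0.097 became -0.021, -0.062 and -0.034 with the GC offset, so their sign depended on that choice. MCM2 shares 22.7% of its exon bases with AC023593.1, an overlapping gene on the opposite strand. That gene had 54 counts summed over all libraries, and MCM2 had 19387. With the offset all 6 were below 0, the lowest at -0.062, and the widest of their 95% intervals was -0.15 to 0.11, for MCM2.

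No licensing factor was called. CDC6, the loader ATPase, was at 163, 170.1 and 172 CPM in SCC replicates 1 to 3 and 174, 162 and 169 CPM in RCC replicates 1 to 3, a log2 fold change of -0.0015 (95% interval -0.14 to 0.14), or 0.050 with the GC offset. CDT1, which brings the MCM ring to the origin, was at 124, 82.0 and 87.0 CPM in SCC replicates 1 to 3 and 80.5, 79.0 and 84.9 CPM in RCC replicates 1 to 3. SCC replicate 1 stood far above the other 5 libraries, which lay between 79.0 and 87.0 CPM. Its log2 fold change of 0.26 (edgeR adjusted p 0.291) was 0.055 without that library and -0.021 with the GC offset. GMNN, which encodes the CDT1 inhibitor geminin, was at 66.2, 86.9 and 84.0 CPM in SCC replicates 1 to 3 and 81.3, 79.8 and 80.2 CPM in RCC replicates 1 to 3. Here SCC replicate 1 was the lowest library and SCC replicates 2 and 3 were the highest: the log2 fold change of -0.027 became 0.088 once SCC replicate 1 was left out, or 0.055 with the GC offset (edgeR adjusted p 0.899, 0.401 and 0.672).

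Among the 8 genes of polymerases, clamp and Okazaki fragment processing, none was called with all 6 libraries, with or without the GC offset, and DESeq2 called 0. At an unadjusted p under 0.05 edgeR had 0 in either direction on group alone, against 8.27% lower and 11.4% higher of all tested genes. With the offset it had 1 lower (FEN1) and 1 higher (PCNA), against 9.48% and 10.8%. PCNA (ENSG00000132646, chromosome 20, 5114953 to 5126626, minus strand), the sliding clamp, was at 206, 244 and 236 CPM in SCC replicates 1 to 3 and 216, 215 and 201 CPM in RCC replicates 1 to 3. SCC replicates 2 and 3 were above every other library, and SCC replicate 1 was within the RCC range. The log2 fold change was 0.12 (95% interval -0.050 to 0.29, edgeR adjusted p 0.403), or 0.14 with the GC offset (0.174). When SCC replicate 1 was left out it was 0.19 and was called higher (0.0156); with the GC offset besides, it was 0.20 (0.00290). PCNA had the highest log2 fold change of the 44 genes in the fits with the GC offset, without SCC replicate 1 and with both, and only CDT1 exceeded it in the fit with neither. Its GC content of 46.8% was close to the median of all tested genes. The window shown for PCNA above holds the same E2F spelling as that of CDCA7, and the other PCNA window holds no E2F spelling. A link between spelling and direction was not tested. FEN1, the flap endonuclease that binds PCNA, was at 228 ± 8.19 CPM in SCC against 237 ± 7.95 in RCC (SD, n = 3) (-0.058, or -0.14 with the GC offset). POLD3, a subunit of polymerase delta, was at 56.7 ± 2.87 CPM in SCC against 62.0 ± 2.28 in RCC (SD, n = 3), without overlap (-0.13 and -0.076). POLA1, the catalytic subunit of polymerase alpha, and PRIM1, the small primase subunit, had log2 fold changes of -0.11 and -0.089, and -0.040 and 0.012 with the offset. PRIM1 was the least counted of the 44, at 313 to 471 counts per library, and its 95% interval was -0.34 to 0.16. RFC2 of the clamp loader, DSCC1 of an alternative loader that serves cohesion, and RPA2 of the single-strand binding complex had log2 fold changes of 0.0038, -0.073 and 0.028, or -0.055, 0.037 and 0.011 with the offset.

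In deoxynucleotide synthesis, 0 of 3 genes were called with all 6 libraries by edgeR or DESeq2. At an unadjusted p under 0.05 edgeR had 1 lower and 0 higher, with or without the GC offset. Of all tested genes 8.27% were lower and 11.4% higher without the offset, and 9.48% and 10.8% with it. RRM2 (ENSG00000171848, chromosome 2, 10120698 to 10131419, plus strand), the small subunit of ribonucleotide reductase whose level follows S phase, was at 176, 203 and 202 CPM in SCC replicates 1 to 3 and 218, 226 and 213 CPM in RCC replicates 1 to 3. The groups did not overlap, and SCC replicate 1 was the lowest. The log2 fold change was -0.18 (95% interval -0.34 to -0.018, edgeR adjusted p 0.215), or -0.15 with the GC offset (0.116), and was not called in either fit. When SCC replicate 1 was left out it was -0.11. RRM1, the large subunit, was at 202 ± 20.6 CPM in SCC against 215 ± 3.08 in RCC (SD, n = 3) and overlapped (-0.090, -0.032 with the offset, or -0.014 with that library left out). TYMS, thymidylate synthase, was at 116, 106 and 109 CPM in SCC replicates 1 to 3 and 99.6, 104 and 115 CPM in RCC replicates 1 to 3. The groups were intermingled, with a log2 fold change of 0.058 (95% interval -0.11 to 0.22), which was 0.019 with the GC offset and 0.026 when SCC replicate 1 was left out. TYMS shares 39.1% of its exon bases with ENOSF1 on the opposite strand, so its counts are uncertain if strand was not used. In all, 16 members share exon bases with another gene. On the same strand, RRM2 shares 20.2% with AC007240.1, TIPIN 21.0% with RPL9P25, PRIM1 14.9% with AC117378.1 and UBR7 13.8% with AL110118.2. Strand cannot separate those reads. Summed over the 6 libraries, these overlapping genes had 259, 0, 2 and 4 counts, and RRM2, TIPIN, PRIM1 and UBR7 had 26532, 7169, 2405 and 9085. ENOSF1 had 6359 and TYMS 14023.

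The 4 checkpoint and fork protection genes were not called in any fit tried. TIPIN, which with TIMELESS steadies the fork, was at 51.6 ± 6.32 CPM in SCC against 60.1 ± 3.93 in RCC (SD, n = 3) and had the lowest log2 fold change (-0.22, edgeR adjusted p 0.247), which was -0.17 with the GC offset and -0.13 when SCC replicate 1 was left out. DTL, the adaptor that has CDT1 destroyed at PCNA-loaded forks, was lower in each SCC than in each RCC library, at 64.5 ± 0.910 CPM in SCC against 68.8 ± 2.38 in RCC (SD, n = 3). The DTL log2 fold change of -0.094 became -0.010 with the GC offset, and after the GC curve the groups overlapped. CLSPN, the adaptor of the ATR-CHK1 checkpoint, and USP1, the deubiquitinase of PCNA and FANCD2, lay at -0.048 and -0.00093. With the GC offset both were above 0, at 0.0048 and 0.075.

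All 5 DNA repair genes had log2 fold changes below 0 in both fits, from -0.22 to -0.082 without the GC offset and from -0.14 to -0.055 with it, and none was called. Of all tested genes 49.5% were below 0 without the offset and 50.7% with it. BLM, a RecQ helicase, was at 38.0 ± 3.68 CPM in SCC against 44.2 ± 2.98 in RCC (SD, n = 3). RAD51AP1, which acts in homologous recombination, was at 57.8 ± 6.18 CPM in SCC against 66.6 ± 0.825 in RCC (SD, n = 3). BRIP1, a helicase that works with BRCA1, was at 63.1 ± 4.53 CPM in SCC against 71.6 ± 0.947 in RCC (SD, n = 3). These 3 transcripts are poor in GC, at 36.7% to 41.3%, and their log2 fold changes went from -0.22, -0.21 and -0.18 to -0.14, -0.059 and -0.055 with the offset. EXO1, an exonuclease of mismatch repair, had values nearer to each other (-0.19 and -0.14), and UNG, which removes uracil from DNA, was further below 0 with the offset (-0.082 and -0.13; edgeR adjusted p 0.483 and 0.201). The remaining S-phase markers, CENPU of the kinetochore, UBR7 and WDR76, had values of -0.045, -0.044 and -0.18, and 0.054, -0.0086 and -0.090 with the offset. CENPU shares 11.7% of its exon bases with PRIMPOL. In the plot of log2 fold changes by role, the distance between the paired symbols is the effect of the offset, and it is widest for CDT1. The plots of CPM by library show the same genes before any fit, with SCC replicate 1 marked by its own symbol.

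**Figure D2:**
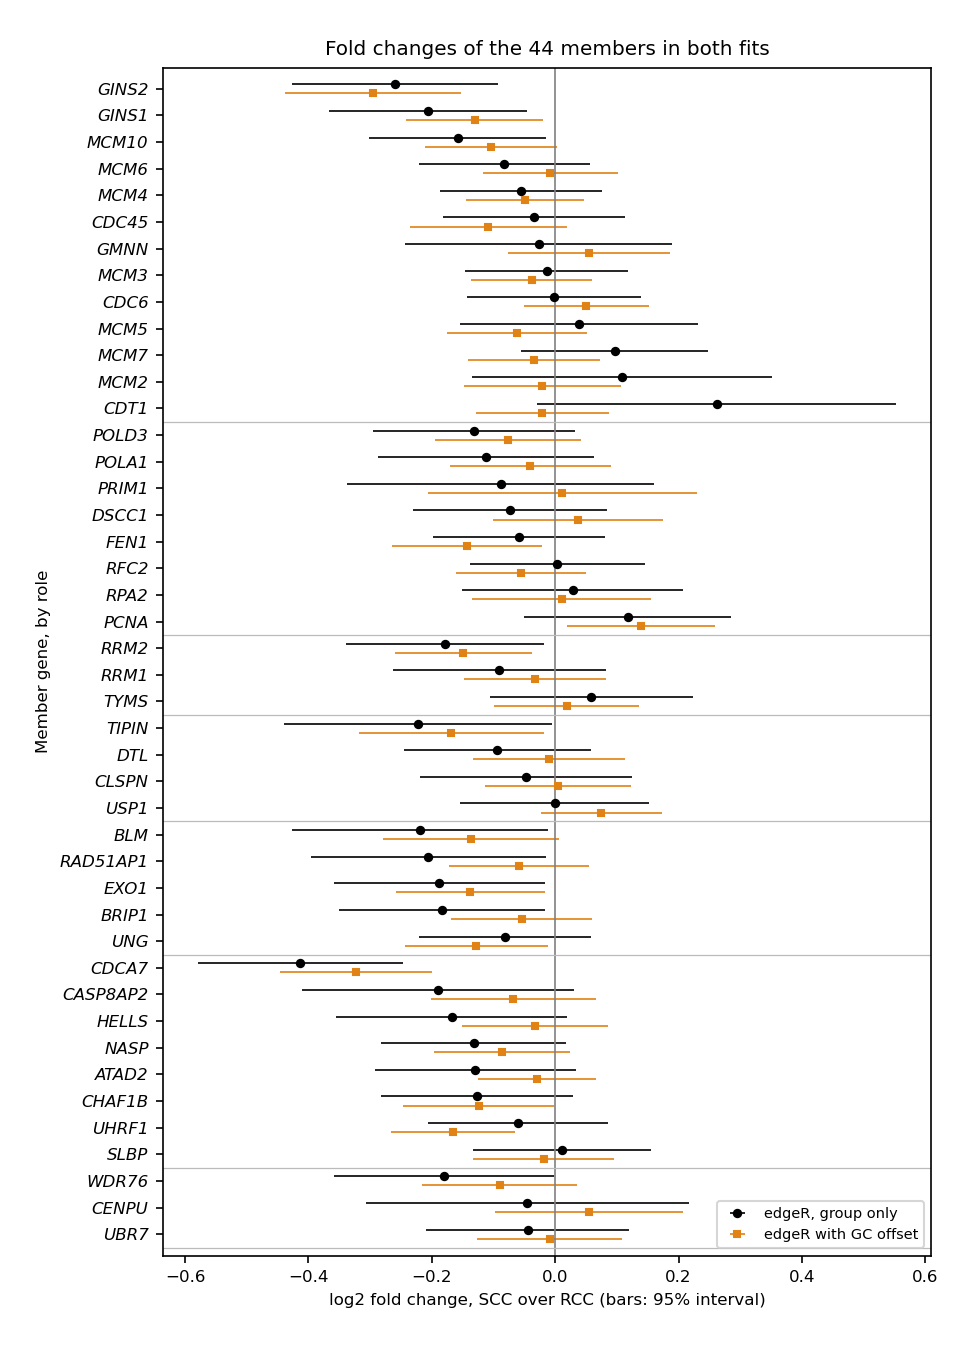
Log2 fold change of each member, SCC over RCC, with its 95% interval, from edgeR on group alone (black circles) and with the GC offset (orange squares), grouped by role. CDCA7 lies at -0.41 and -0.32, and CDT1 moves from 0.26 to -0.021.

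**Figure D3:**
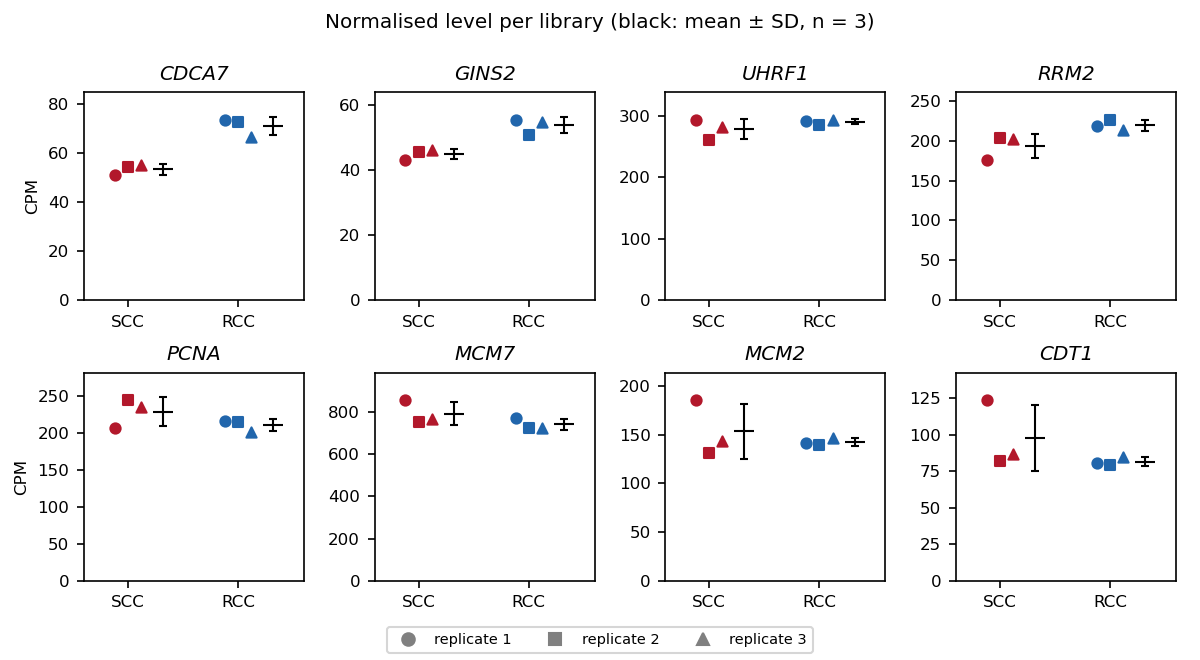
CPM of 8 members in each library, by group, with replicates marked by shape and the mean ± SD in black (n = 3); each axis starts at 0. CDCA7, GINS2 and RRM2 do not overlap between groups, and in CDT1 and MCM2 only SCC replicate 1 lies above the RCC libraries by more than their spread.

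The GC trend was set against the members directly. Across the 44 genes, which share the same libraries and are not independent replicates, log2 fold change and GC content had a Pearson r of 0.65 and a Spearman rho of 0.59. Over 15874 tested genes with a GC value these were 0.36 and 0.47. Over the 44 genes, r was 0.27 when SCC replicate 1 was left out. It was -0.12 with the GC offset, as the 3 panels against GC content show. In the 15 members with the lowest GC content (up to 42.04%) the median log2 fold change was -0.17, and in all 3263 tested genes of that GC range it was -0.11. In the middle 14 the medians were -0.10 for members and -0.045 for all 3904 genes of the range, and in the highest 15 (from 48.4%) 0.0038 and 0.11 (7222 genes). The members' median was the lower one in each range, but GC content was not matched within a range. Of the 10 bins of GC content, those with medians of 59.2% and 63.5% held 0 and 1 of the 44 members. With the GC offset the 3 member medians were -0.033, -0.044 and -0.055. The sign of 13 members differed between the fits without and with the offset, and that of 9 members changed when SCC replicate 1 was left out. In all 3 fits 27 members were below 0, and PCNA, RPA2 and TYMS were above 0. The 95% interval by edgeR on group alone lay within 0.3 of 0 on the log2 scale for 27 of the 44 genes. With the GC offset it did so for 41, and the exceptions were CDCA7, GINS2 and TIPIN. The share of all tested genes within that limit was not examined.

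**Figure D4:**
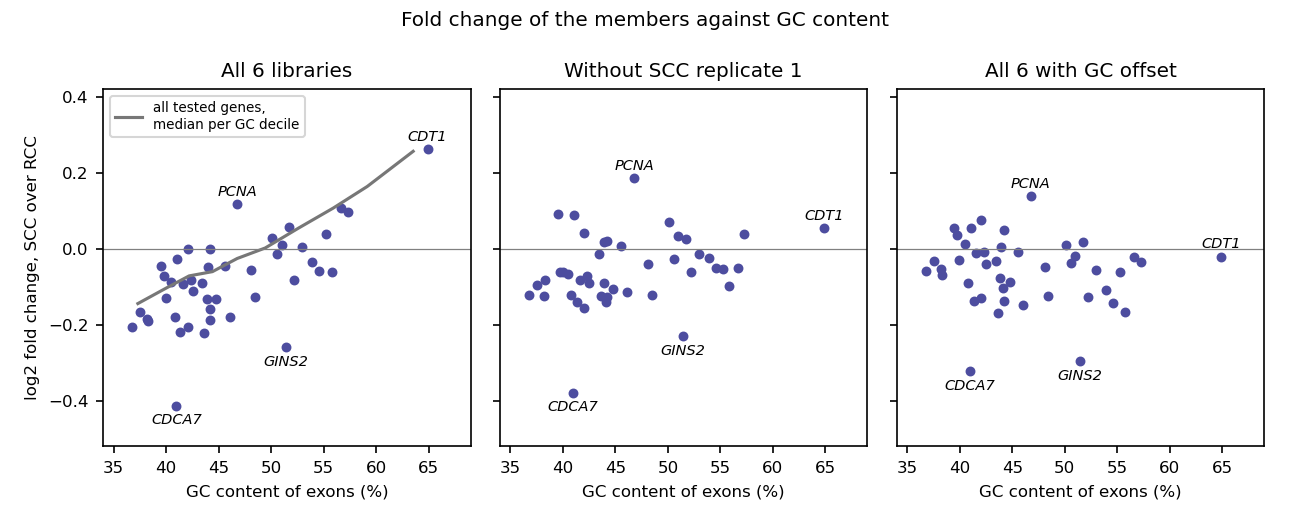
Log2 fold change of the 44 members against the GC content of their exons, in 3 panels: all 6 libraries, SCC replicate 1 left out, and the GC offset applied; the grey line in the first panel is the median of all tested genes in each of 10 bins of GC content. The correlation over the members (r = 0.65) is weaker without SCC replicate 1 (r = 0.27), and CDCA7 and GINS2 are the lowest genes in all 3 panels.

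Levels can be compared between genes only per length, in FPKM (fragments scaled by exon length and library total). Exon length is that of all annotated exons of a gene together. The length of the transcripts present was not examined, so the order of genes is approximate. The mean over the 6 libraries ran from 174 FPKM in MCM7 to 5.80 in CASP8AP2, with a median of 26.6. MCM7 was at 192, 171 and 174 FPKM in SCC replicates 1 to 3 and 175, 166 and 165 in RCC replicates 1 to 3. PCNA followed, at 138, 165 and 159.7 and 146, 147 and 136 FPKM. The library ranges of both overlapped, although MCM7 was above PCNA within each library. MCM7 stood above the other genes of its ring, MCM3 (87.3 FPKM), MCM4 (36.4), MCM5 (30.4), MCM2 (30.0) and MCM6 (29.5), although the proteins form a ring with 1 copy of each. FEN1 (93.3) and MCM3 came next, then RFC2 (58.8). CDCA7 had rank 31 of 44, at 12.8, 13.7 and 14.03 FPKM in SCC and 18.6, 18.6 and 16.9 in RCC, and GINS2 rank 33. Of the 43 neighbouring pairs in the order, 40 had overlapping library ranges, and the breaks lay below PCNA, below MCM3 and below CHAF1B. These ranges pool the libraries, so a pair with overlapping ranges can still keep its order within each library.

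**Figure D5:**
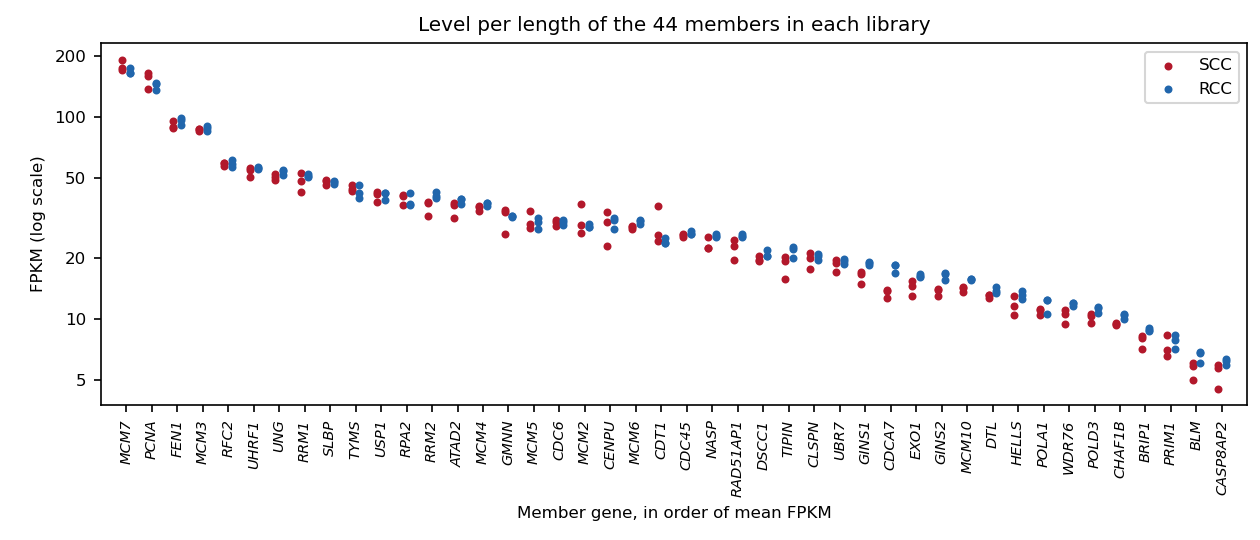
FPKM of each member in each of the 6 libraries, on a log axis, in order of the mean; red points are SCC and blue points RCC. The order runs from MCM7 (174 FPKM) to CASP8AP2 (5.80), and most neighbours overlap.

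Other DNA replication genes were taken as a list of 69 that holds no member, and all 69 passed the filter on low counts. By edgeR 0 were called lower and 0 higher; 11 (15.9%) had an unadjusted p under 0.05 and were lower, and 1 was higher, against 8.27% and 11.4% of all tested genes. DESeq2 called 1 lower, POLE2, where 1.07% of all tested genes were called lower. The median log2 fold change was -0.055, -0.052 with the GC offset and -0.026 when SCC replicate 1 was left out; 46 of 69 (66.7%) were below 0, against 49.5% of all tested genes. The smallest p belonged to DNA2, the nuclease-helicase of long flaps, at 35.1 ± 4.06 CPM in SCC against 44.6 ± 2.75 in RCC (SD, n = 3) (log2 fold change -0.35, edgeR adjusted p 0.101), or -0.21 with the GC offset (0.0846). POLE2, the second subunit of the leading-strand polymerase epsilon, was at 45.7 ± 7.54 CPM in SCC against 59.7 ± 2.94 in RCC (SD, n = 3) (-0.39, 0.105) and was called lower with the GC offset (-0.29, 0.0333). DBF4, the activator of the CDC7 kinase that fires origins, was at 61.8 ± 5.54 CPM in SCC against 74.2 ± 0.271 in RCC (SD, n = 3) (-0.27, 0.122), or -0.15 with the offset (0.121). Without SCC replicate 1, 4 were called lower: DBF4, DNA2, POLE2 and MCM8, where 2.1% of all genes tested in that fit were. Without SCC replicate 2, 4 were: DNA2, POLE2, PCLAF and RPA3, where 1.59% of all genes were called lower and 3.57% higher, and where CDCA7 was the only one of the 44 members called. In the other leave-one-out fits 0 were called, where 8 to 19 of all tested genes were called lower and 99 to 179 higher. The single gene higher at an unadjusted p under 0.05 was TK1, thymidine kinase, named after its values were seen, at 285 ± 29.5 CPM in SCC against 247 ± 4.97 in RCC (SD, n = 3); its GC content was 62.1% and its log2 fold change of 0.21 became -0.0081 with the GC offset. An E2F spelling was in 18.8% of the 80 promoter windows found for 59 of these genes.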

How the data were processed

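RNA from 3 SCC and 3 RCC samples was made into libraries with a NEBNext Ultra kit and sequenced. HISAT2 2.0.5, an aligner, and featureCounts 1.5.0-p3, a read counter, are the tools named, per the submitters' processing notes; the genome build and the strand setting are not given in the sources used here. The deposited count table holds whole-number read counts per gene that the authors did not normalize. The deposited FPKM table holds the authors' values scaled by gene length and library total, and how the library total was taken is not given in the sources used here. Its 58735 rows carry gene positions equal to those of GENCODE 29 on GRCh38, which was used for coordinates and exon GC content.

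Counts were fitted over the whole table with edgeR 4.0.16 (R 4.3.3; filterByExpr with a minimum count of 10, TMM, quasi-likelihood F test on group, two-sided), leaving 15881 genes, with Benjamini-Hochberg adjustment over all of them and calls at an adjusted p under 0.05. Intervals are 95%. The GC offset subtracts, per library, a lowess curve (span 0.3) of log2 CPM deviation against exon GC content. Fits were tested on simulated data with known changes, all larger in size than the log2 fold change of any member. Changes of the members' size were not simulated. Alternatives were DESeq2 1.42.0, limma 3.58.1 on log2(FPKM + 1) or log2(FPKM + 0.1) with genes kept at 1 FPKM or more in 3 libraries, other scalings and filters, a wider GC span, leaving out each library, and a block for the replicate number.

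The members, the other gene lists and the GC offset were chosen with earlier results of these data known. Genes given with every library's value were those called, the next 4 by p, the extremes of fold change, and MCM2 to MCM7, PCNA, TYMS, RRM2, CDC6, CDT1, GMNN and SLBP; UHRF1 was added after its values were seen. Of the other replication genes, the 3 with the smallest p were named, with those called in another fit.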

Additional observations from a re-analysis of the deposited data

How the results depend on the processing

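All 19 alternatives were applied to every member. Direction was the same in all of them for 28 of the 44 genes and changed in at least 1 for 16, and 4 genes (CDCA7, GINS2, PCNA, UHRF1) were called in at least 1. CDCA7 was called in 14, always lower, and GINS2 in 5. The number of members called lower, 1 with edgeR on group alone, was 0 by limma on log2(FPKM + 1) without a filter, 2 with the GC offset at either span (0.3 or 0.7) and with the replicate block and GC offset together, and 3 with SCC replicate 1 left out and the GC offset. Leaving out 1 library at a time gave 0 to 2, with 0 without SCC replicate 3 or any RCC replicate. Of all tested genes, limma without a filter called 1 of 37596 lower. The GC offset gave 234 at span 0.3 and 239 at 0.7 of 15881, and 403 of 16324 with SCC replicate 1 left out. Without SCC replicates 1, 2 and 3 it was 343, 261 and 19 genes, and without 1 RCC replicate 8 to 14. The number of members called higher was 1 with SCC replicate 1 left out and the GC offset, where 652 of all genes were. It was 0 to 1 with 1 library left out, where 99 to 642 were. Of the 69 other replication genes, 1 was called lower by DESeq2, with the GC offset at either span, with the replicate block, and with SCC replicate 1 left out and the GC offset, 3 without a filter beyond 1 count, and 3 with the replicate block and GC offset. Leaving out 1 library gave 0 to 4. Of all genes tested without a filter beyond 1 count, 315 of 37596 were called lower. With the replicate block and GC offset it was 425 of 15881. The members' median log2 fold change was -0.044 with the GC offset and -0.043 with the replicate block and GC offset. The causes of these changes were not tested. The replicate block alone left 1 member called lower, CDCA7 (log2 fold change -0.41, edgeR adjusted p 0.0231), and 0 called higher. Deviations of same-numbered SCC and RCC libraries from their group means had correlations of -0.0091, 0.025 and -0.079, so the numbers were not taken to pair libraries. Replicate 2 alone correlated best with its own number.

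Members whose log2 fold change took the other sign were all uncalled in that fit. With the GC offset the values were -0.021 in MCM2, -0.062 in MCM5, -0.034 in MCM7, 0.050 in CDC6, -0.021 in CDT1, 0.055 in GMNN, 0.012 in PRIM1, -0.055 in RFC2, 0.037 in DSCC1, 0.0048 in CLSPN, 0.075 in USP1, -0.018 in SLBP and 0.054 in CENPU. With the wider span they were -0.023 in MCM2, -0.064 in MCM5, -0.036 in MCM7, 0.051 in CDC6, -0.016 in CDT1, 0.058 in GMNN, 0.015 in PRIM1, -0.060 in RFC2, 0.039 in DSCC1, 0.0057 in CLSPN, 0.078 in USP1, -0.024 in SLBP and 0.056 in CENPU. With the replicate block and GC offset they were -0.025 in MCM2, -0.061 in MCM5, -0.034 in MCM7, 0.051 in CDC6, -0.022 in CDT1, 0.052 in GMNN, 0.0063 in PRIM1, -0.054 in RFC2, 0.035 in DSCC1, 0.0039 in CLSPN, 0.075 in USP1, -0.019 in SLBP and 0.051 in CENPU. With SCC replicate 1 left out and the GC offset they were -0.097 in MCM2, -0.089 in MCM5, -0.012 in MCM7, 0.043 in CDC6, -0.051 in CDT1, 0.12 in GMNN, -0.031 in RFC2, 0.011 in RRM1, 0.041 in CLSPN, 0.072 in USP1, 0.14 in CENPU and 0.024 in UBR7. RFC2 was also -0.0018 by DESeq2, -0.0019 with RLE and -0.014 with upper-quartile scaling, and -0.0025, -0.0026 and -0.0025 by limma at a pseudocount of 1, of 0.1, and of 1 without a filter. SLBP was -0.0067 with upper-quartile scaling, and at least 1 count as the filter gave 0.0048 in CDC6 and 0.0051 in USP1. With 1 library left out at a time, the members that changed sign ranged from -0.051 to 0.19 in MCM2, -0.054 to 0.084 in MCM5, -0.033 to 0.022 in CDC6, -0.11 to 0.088 in GMNN, -0.031 to 0.023 in RFC2, -0.018 to 0.090 in RPA2, -0.11 to 0.018 in CLSPN, -0.049 to 0.042 in USP1, -0.018 to 0.033 in SLBP, -0.18 to 0.093 in CENPU and -0.099 to 0.0069 in UBR7. The least counted member, PRIM1, had 313 counts or more in every library.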
